A study of Oryctolagus cuniculus with 4 samples.

Results

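The receptors and SMAD proteins of TGF-beta and BMP signalling were followed in intact rabbit semitendinosus tendon. The members were the 10 genes TGFBR1, TGFBR2, TGFBR3, ACVR1, BMPR1A, BMPR2, SMAD2, SMAD3, SMAD4 and SMAD7, taken by gene symbol, and all 10 symbols had a row among the 20294 genes of the deposited table. The tendons came from 4 female New Zealand White rabbits aged 193 days, 1 tendon per animal, with muscle scraped from the surface before freezing. The series title calls the tissue allografts, the design text and source labels call it autografts, and the sample descriptions call it intact, so the tendons are called intact here. No treatment was named and all 4 formed 1 group, so levels are compared between genes within a tendon and between the animals. The semitendinosus is a hamstring, and its tendon serves as graft tissue in knee ligament surgery.

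Ligands of the TGF-beta family bind a type II receptor kinase, which phosphorylates and switches on a type I receptor kinase. The type I receptor then phosphorylates receptor-regulated SMADs, which join the common partner SMAD4, enter the nucleus and bind DNA with other factors. TGF-beta signalling is known for its part in tendon development and in collagen synthesis by fibroblasts, and BMP signalling for its part in cartilage and bone formation at tendon insertions.

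Libraries held between 19759696 and 30646052 estimated counts, lowest in tendon 1. Spearman correlations across genes, which are not independent replicates, ran from 0.971 to 0.981 over the 6 possible pairs. Tenocyte markers were present, with TNMD between 31.7 and 187 TPM and MKX between 73.8 and 169 TPM, and SCX had no entry under that symbol. Skeletal muscle, endothelial, pericyte, adipocyte, macrophage and cartilage markers were present as well, and none of the markers with a row was at 0 in any tendon. In such bulk tissue, fewer cells of a type and less RNA per cell cannot be told apart. TPM divide counts by transcript length before scaling each tendon to a fixed total, so that levels of different genes can be compared.

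TGFBR3, the co-receptor betaglycan that presents TGF-beta ligands to the signalling receptors, had the highest level of the 10 genes. It stood at 220, 154, 165 and 112 TPM in tendons 1 to 4, a mean of 163 ± 44.5 TPM (SD, n = 4). Tendon 1 was the highest and tendon 4 the lowest, and TGFBR3 was the highest of the 10 genes in each tendon. It ranked 539th of the 9971 genes with a symbol that averaged 1 TPM or more. Its row (ENSOCUG00000016083.3, OryCun2.0 chromosome 13, 72554602 to 72768815) had a transcript of 6626 bases, and 3.77% of protein-coding transcripts in the table were longer.

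TGFBR2, the type II receptor that binds TGF-beta, had 112, 108, 114 and 83.6 TPM in tendons 1 to 4, a mean of 104 ± 13.9 TPM (SD, n = 4). Tendons 1 to 3 lay close together and tendon 4 was lower (ENSOCUG00000015963.3, OryCun2.0 chromosome 14, 17662356 to 17752039). TGFBR1, the type I kinase that TGFBR2 activates, had 74.4, 47.9, 62.9 and 50.04 TPM, a mean of 58.8 ± 12.3 TPM (SD, n = 4; chromosome 1, 14063534 to 14107751). The level of TGFBR2 was above that of TGFBR1 in each tendon, and the lowest TGFBR2 value lay above the highest TGFBR1 value.

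ACVR1 is a type I receptor for BMPs and activins, in which activating mutations cause heterotopic bone formation in tendon and muscle. It had 103, 87.4, 75.9 and 77.4 TPM in tendons 1 to 4, a mean of 86.0 ± 12.5 TPM (SD, n = 4; ENSOCUG00000002439.3, OryCun2.0 chromosome 7, 96559029 to 96635689). Tendon 1 was the highest, and tendons 3 and 4 were the lowest and close to each other. BMPR1A, another type I receptor for BMPs, had 66.8, 50.0, 41.7 and 41.7 TPM, a mean of 50.05 ± 11.8 TPM (SD, n = 4; chromosome 18, 8553741 to 8622760). Its tendons stood in a similar order, and ACVR1 was above BMPR1A in each of them.

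BMPR2, the type II receptor for BMPs, had 101, 58.4, 76.6 and 60.6 TPM in tendons 1 to 4, a mean of 74.1 ± 19.7 TPM (SD, n = 4; chromosome 7, 143119349 to 143278103). Tendon 1 was the highest and tendons 2 and 4 were the lowest. BMPR2 and ACVR1 lie on the same rabbit chromosome, far apart.

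SMAD4, the common partner of all receptor-regulated SMADs, had 87.3, 69.5, 82.8 and 73.3 TPM in tendons 1 to 4, a mean of 78.2 ± 8.27 TPM (SD, n = 4). It was the only member with more than 1 transcript in the table. The transcript of 1656 bases (OryCun2.0 chromosome 9, 91624020 to 91661122) took 72.6%, 72.2%, 75.3% and 72.5% of the TPM of the gene, and that of 1696 bases (91623884 to 91660074) took the rest, a mean of 26.8% ± 1.41 (SD, n = 4). The split between the transcripts is itself an estimate, since their sequences may share most reads, and it varied little between animals.

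SMAD2 (a row of 1454 bases), a receptor-regulated SMAD of the TGF-beta and activin branch, had 85.1, 70.8, 80.2 and 73.8 TPM in tendons 1 to 4, a mean of 77.5 ± 6.43 TPM (SD, n = 4). SMAD2 and SMAD4 stood in the same order across the tendons, 1, 3, 4 and 2 from high to low. SMAD3, its partner in the same branch, had 110, 58.9, 63.9 and 70.4 TPM, a mean of 75.8 ± 23.2 TPM (SD, n = 4). Tendon 1 stood above the other 3, and without it the mean was 64.4 TPM. The SMAD3 row (ENSOCUG00000029601.1, chromosome 17, 5347892 to 5365825) had a transcript of 746 bases, against a median of 1653 bases over protein-coding transcripts, so its TPM rest on a short gene model and on 730 to 883 estimated counts.

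SMAD7, the inhibitory SMAD that blocks type I receptors and is itself induced by the pathway, had the lowest TPM of the 10 genes. It stood at 20.3, 13.04, 18.9 and 12.5 TPM in tendons 1 to 4, a mean of 16.2 ± 3.99 TPM (SD, n = 4). Tendons 1 and 3 were higher than tendons 2 and 4, and in TPM the highest SMAD7 value lay below the lowest value of each of the other 9 genes. Its row had 3534 bases, and its last place depends on the length correction. In CPM, counts scaled to a fixed total without division by length, its mean was 31.1 against 30.5 for SMAD3. SMAD7 was then above SMAD3 in tendons 2 (25.7 against 24.5 CPM) and 3 (37.5 against 26.7 CPM), and below it in tendons 1 and 4. SMAD2 (89013607 to 89073034), SMAD7 (89924494 to 89950849) and SMAD4 all lie on OryCun2.0 chromosome 9, within 2.65 Mb that hold 21 genes of the table. SMAD7 had a range between its highest and lowest tendon of 0.67 on the log2 scale, against 0.33 for SMAD4 and 0.26 for SMAD2.

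**Figure D1:**
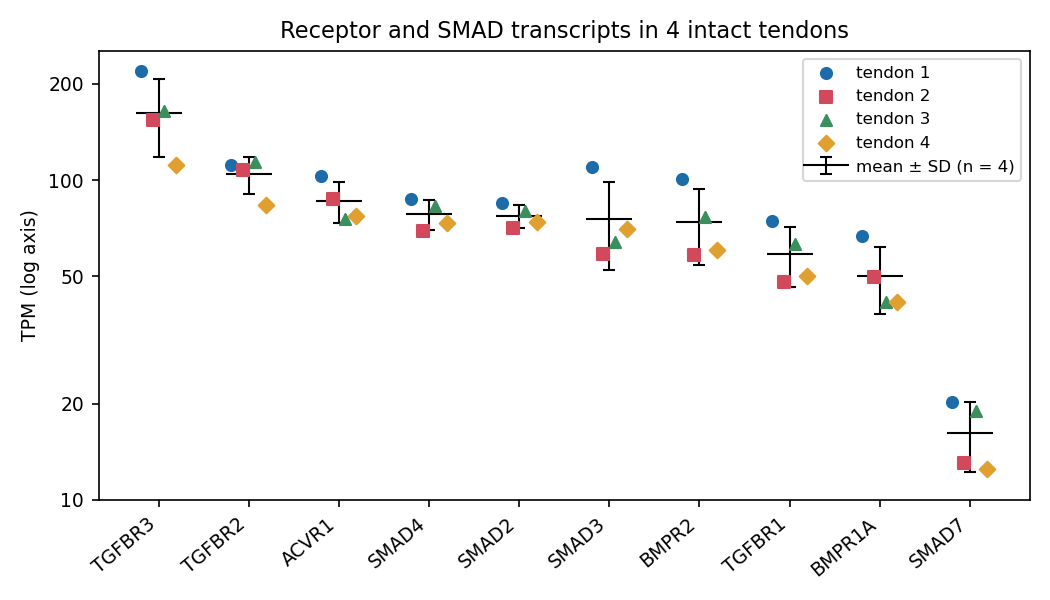
TPM on a log axis of the 10 receptor and SMAD genes in tendons 1 to 4 (coloured points), with the mean and SD of the 4 as a bar. TGFBR3 lay between 112 and 220 TPM, SMAD7 between 12.5 and 20.3 TPM, and tendon 1 was the highest point for 9 of the 10 genes.

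Within-tendon ratios were used to ask which of these levels differ beyond the spread between animals. Each ratio was taken on TPM + 0.5 and tested by flipping its sign in each of the 4 tendons, an exact two-sided permutation test. Its smallest possible p, 2 of 16 sign assignments or 0.13, is above 0.05, so no ratio could pass. In 15 of the 21 ratios every tendon had the same gene or class higher, with p = 0.13 and an adjusted p of 0.175 in the exact permutation test. In the other 6 the direction differed between tendons. Of the 21, 9 were pairs of neighbours in the order of mean TPM in these same data, and some were formed only from that order. For those, the order of the means largely set the direction.

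Among the TGF-beta receptors, TGFBR3 was 1.96, 1.42, 1.45 and 1.33 times TGFBR2 in tendons 1 to 4 (mean log2 ratio 0.61 ± 0.25, SD, n = 4, above 1 in 4 of 4 tendons; exact permutation test, p = 0.13). TGFBR2 was 1.50, 2.24, 1.80 and 1.66 times TGFBR1, and TGFBR3 was 2.22 to 3.19 times TGFBR1. The betaglycan level thus stood above that of the type II receptor, and the type II receptor above the type I kinase, in all 4 animals.

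Among the BMP receptors, ACVR1 was 1.54, 1.74, 1.81 and 1.85 times BMPR1A in tendons 1 to 4 (mean log2 ratio 0.79 ± 0.12, SD, n = 4; exact permutation test, p = 0.13). BMPR2 was 1.17 to 1.83 times BMPR1A and 0.544 to 0.904 times TGFBR2, the latter a mean log2 ratio of -0.51 in TPM and -1.41 without length correction. ACVR1 was 1.20 to 1.82 times TGFBR1. The order of ACVR1 over BMPR1A and TGFBR1, and of BMPR2 over BMPR1A and TGFBR1, turned when no length correction was made. The rows of ACVR1 (2970 bases) and BMPR2 (3114 bases) are shorter than those of BMPR1A (5662 bases) and TGFBR1 (5444 bases), and the mean of ACVR1 was 139 CPM (counts scaled to a fixed total, not divided by length) against 153 CPM for BMPR1A.

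SMAD4 and SMAD2 had nearly the same TPM in each animal. Their ratio was 1.03, 0.981, 1.03 and 0.993 in tendons 1 to 4 (mean log2 ratio 0.011 ± 0.035, SD, n = 4, above 1 in 2 of 4 tendons; exact permutation test, p = 0.625, adjusted p = 0.691). This was the smallest SD of the 21 ratios. With the more abundant SMAD4 transcript alone, SMAD4 stood below SMAD2 (mean log2 ratio -0.44). SMAD3 was 1.29 times SMAD2 in tendon 1 and 0.798 to 0.955 times in the other 3 (exact permutation test, p = 0.75, adjusted p = 0.788). SMAD4 was 4.22, 5.17, 4.29 and 5.66 times SMAD7 (mean log2 ratio 2.26 ± 0.21, SD, n = 4; exact permutation test, p = 0.13). Without length correction these values moved: the mean log2 ratio was -1.02 for SMAD3 to SMAD2 and 1.23 for SMAD4 to SMAD3, each on 1 side in all 4 tendons (exact permutation test, p = 0.13), and 1.20 for SMAD4 to SMAD7. That of SMAD4 to SMAD2 was then 0.21, with SMAD4 higher in all 4 tendons (exact permutation test, p = 0.13). The place of SMAD3 among the SMADs, and the near equality of SMAD4 and SMAD2, therefore depend on the length correction. A ratio that misses the threshold does not show equal levels.

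Classes of the pathway were compared by summed TPM. SMAD4 was 0.449, 0.537, 0.576 and 0.510 times the sum of SMAD2 and SMAD3 in tendons 1 to 4. The SMADs of the BMP branch, SMAD1, SMAD5 and SMAD9, together had 85.2, 58.02, 71.8 and 67.3 TPM, against 195, 130, 144 and 144 TPM for SMAD2 and SMAD3, a ratio between 0.439 and 0.50 (mean log2 ratio -1.11 ± 0.082, SD, n = 4; exact permutation test, p = 0.13). The sums of the BMP-branch SMADs lay below those of the TGF-beta-branch SMADs in every tendon, with no overlap. The gap was smaller without length correction, where the mean log2 ratio was -0.34, and that of SMAD4 to SMAD2 and SMAD3 was -0.37 in place of -0.95. The inhibitory SMAD7 was 0.061 to 0.090 times the sum of the 5 receptor-regulated SMADs; the other inhibitory gene, SMAD6, had no entry under that symbol. The mean log2 ratio was -3.76 in TPM and -2.41 without length correction. Type II receptors (TGFBR2, BMPR2 and ACVR2A, without ACVR2B, which had no entry) were 0.663 to 0.834 times the 7 type I receptors, a class that also held ACVRL1, ACVR1B, ACVR1C and BMPR1B.

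**Figure D2:**
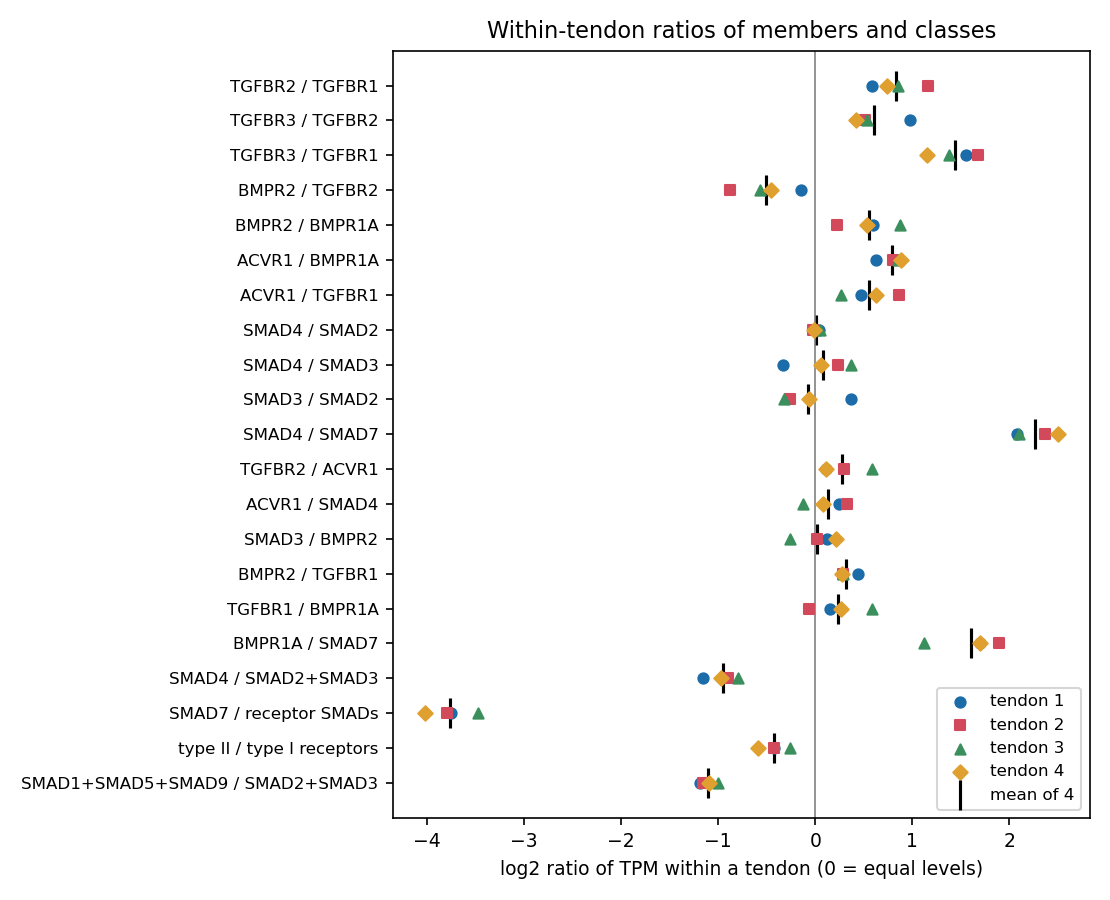
Log2 ratio of TPM + 0.5 within a tendon for 17 pairs of members and 4 classes, in tendons 1 to 4 (coloured points) with their mean (black bar); 0 marks equal levels. SMAD4 / SMAD2 lay within 0.981 to 1.03 times, while SMAD4 / SMAD7 lay between 4.22 and 5.66 times.

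In the order of mean level (TGFBR3, TGFBR2, ACVR1, SMAD4, SMAD2, SMAD3, BMPR2, TGFBR1, BMPR1A, SMAD7), 4 of 9 neighbouring pairs kept their order in all 4 tendons. These were TGFBR3 over TGFBR2, TGFBR2 over ACVR1 (1.08 to 1.50 times), BMPR2 over TGFBR1 (1.21 to 1.36 times) and BMPR1A over SMAD7 (2.17 to 3.73 times). The 4 genes from SMAD4 to BMPR2 had means between 74.1 and 78.2 TPM, and in TPM no neighbouring pair among them differed beyond its spread. ACVR1 over SMAD4 held in 3 of 4 tendons (exact permutation test, p = 0.375), as did TGFBR1 over BMPR1A (exact permutation test, p = 0.25). Without length correction, the mean log2 ratio was 1.24 for TGFBR2 to ACVR1, 0.96 for ACVR1 to SMAD4 and 2.29 for BMPR1A to SMAD7, against 0.28, 0.13 and 1.60 in TPM.

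No member differed 2-fold between any 2 animals. That is, 0 of 10 had a range of 1 or more on the log2 scale between the highest and the lowest tendon, against 17.5% of the 12786 genes that averaged 1 TPM or more. Among genes that averaged 10 TPM or more, as every member did, the share was 10.3%, and 0 of 10 is close to it. The median range was 0.65 for the members, 0.51 for all genes and 0.42 for genes that averaged 10 TPM or more. TGFBR3 had the widest range at 0.97, followed by SMAD3 at 0.89 and BMPR2 at 0.79, and SMAD2 the narrowest at 0.26. Without tendon 1 the median range was 0.32 for the members and 0.36 for all genes. The median of the members was the wider without tendon 2 (0.62 against 0.36), without tendon 3 (0.65 against 0.46) and without tendon 4 (0.57 against 0.42).

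Counting error was small beside these differences. The fewest counts for any member were 717, for SMAD7 in tendon 1, where counting alone gives a coefficient of variation of 3.73%, while the coefficient of variation of TPM between tendons was 8.30% for SMAD2 and 30.6% for SMAD3. By edgeR with an intercept alone, each gene was given a biological coefficient of variation drawn towards that of genes at similar levels. This value, which can differ from the coefficient of TPM, was 0.157 for SMAD2, 0.166 for SMAD4 and 0.267 for TGFBR3. The common value was 0.264 over 12740 genes. TGFBR3 thus lay near the common value and SMAD2 and SMAD4 below it.

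**Figure D3:**
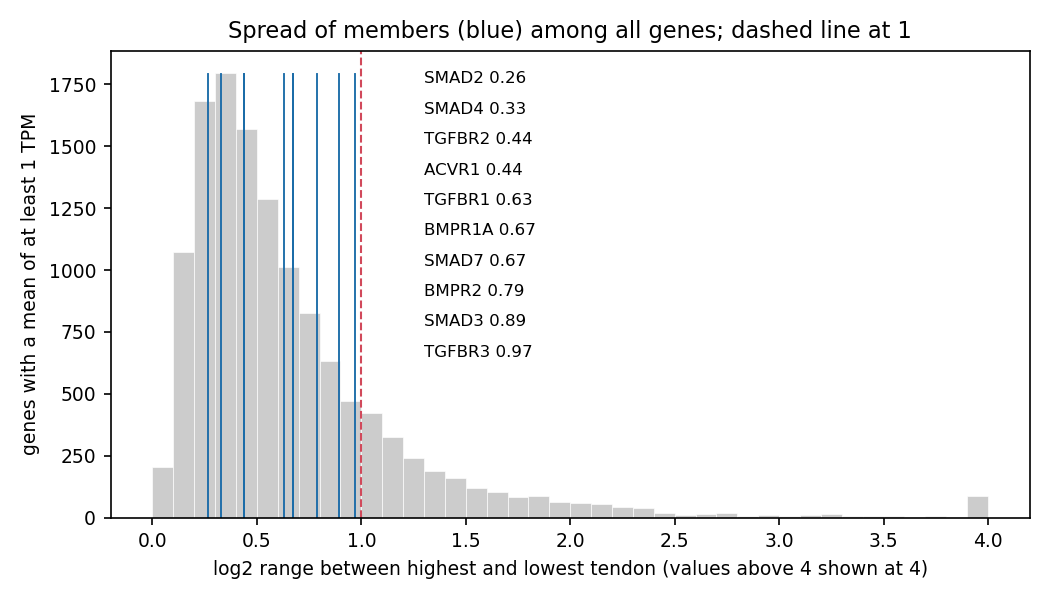
Histogram of the log2 range between the highest and lowest tendon for 12786 genes, with the 10 members as blue lines and their values printed; ranges above 4 are drawn at 4. The members lie between 0.26 and 0.97, below the dashed line at 1 that 17.5% of genes reach.

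The members shared their highest tendon. In TPM, 9 of the 10 were highest in tendon 1, against 38.6% of all genes, and TGFBR2 was highest in tendon 3. Lowest values were split, with 5 members lowest in tendon 2 (45.3% of all genes), 4 in tendon 4 (15.5% of all genes) and ACVR1 in tendon 3. The TPM scale itself moved the median gene, by 0.058, -0.11, 0.012 and 0.049 on the log2 scale in tendons 1 to 4, against 0.35, -0.15, 0.071 and -0.22 for the median member. Relative to the median gene, the members were therefore higher in tendon 1 and lower in tendon 4.

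TMM normalisation, which centres the tendons on most genes, left the median gene within 0.006 between tendons. On that scale 9 of 10 members were again highest in tendon 1 (30.5% of all genes), 9 of 10 were lowest in tendon 4 (25.9% of all genes), and none was lowest in tendon 2 (25.7% of all genes). The exceptions were TGFBR2, highest in tendon 2 at 372 normalised CPM, and SMAD3, lowest in tendon 3 at 25.8 normalised CPM. TGFBR3 had 762, 606, 592 and 390 normalised CPM in tendons 1 to 4, and ACVR1 had 160, 155, 122 and 121. With tendon 1 left out, 7 of 10 members were highest in tendon 3 in TPM, against 35.6% of all genes. On the TMM scale fewer were, and the share over all genes was not computed there. There TGFBR3 (606 and 592 normalised CPM in tendons 2 and 3) and TGFBR2 (372 and 358) were higher in tendon 2, as ACVR1 and BMPR1A were on both scales.

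**Figure D4:**
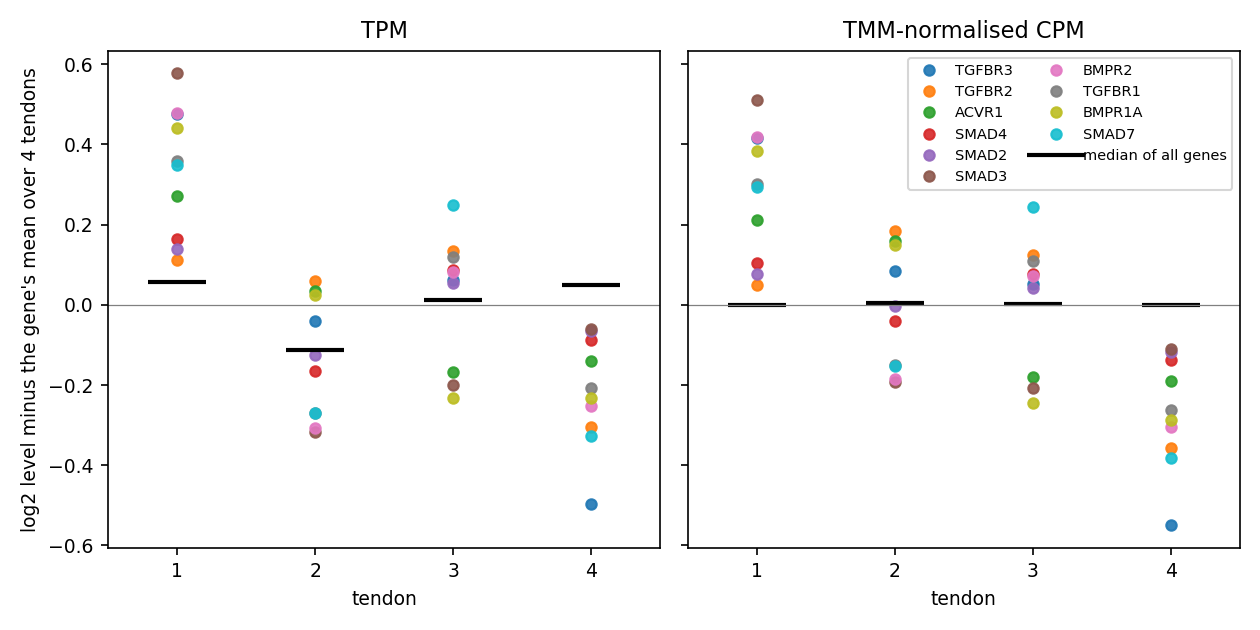
Log2 level of each of the 10 members minus its own mean over the 4 tendons, in TPM (left) and TMM-normalised CPM (right); the black bar is the median of 12786 genes. All 10 members lie above the black bar in tendon 1 and below it in tendon 4 on both scales.

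Tissue composition also differed between these tendons. Tendon 1 had the smallest library and the lowest summed TPM of the muscle markers common to all fibres (5 of 6 with a row: 4672 TPM, against 9740 to 18990 TPM in the others). Its slow fibre markers (4 of 6 with a row) were lowest too, at 4118 TPM against 8070 to 15391 TPM, as were its adipocyte markers (4 of 6), at 246 TPM against 400 to 1021 TPM, and its endothelial markers (7 of 7), at 190 TPM against 240 to 326 TPM. Its cartilage markers (5 of 6) were the highest, at 878 TPM against 298 to 439 TPM, carried by COL11A2 (491 TPM) and COL2A1 (281 TPM), while SOX9 and COL9A1 were highest in tendon 3. The tenocyte markers (6 of 7), mostly THBS4 and FMOD, summed to 15626, 17520, 9663 and 8033 TPM in tendons 1 to 4, highest in tendon 2 and lowest in tendon 4. In TPM, 5 members were lowest in tendon 2 (45.3% of all genes) and 4 in tendon 4 (15.5% of all genes). MKX, at 169, 117, 90.4 and 73.8 TPM, was highest in tendon 1 and lowest in tendon 4, as TGFBR3 was, whereas TNMD was highest in tendon 4. Tendon 4 had the highest macrophage markers (7 of 7), at 204 TPM against 67.7 to 164 TPM, and the highest fast fibre markers (7 of 8), at 2387 TPM against 17.4 to 80.5 TPM. The pericyte markers (5 of 6) lay between 434 and 533 TPM. The part of tissue composition and depth in the profile of the members was not tested. With the muscle markers taken out of the TPM total, 9 of 10 members were highest in tendon 1 (36.2% of all genes). The count was also 9 of 10 without the mitochondrially encoded genes in the total (33.5% of all genes) and with DESeq2 size factors (30.8% of all genes). Each of these settings rescales all kept genes of a tendon by the same factor. None of them therefore takes muscle or other cells out of the tissue or tests their part.

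The remaining pathway genes gave 77 rows for 102 listed symbols, and 67 of them had a mean of at least 1 TPM. Of these, 14 had a log2 range of at least 1 (20.9%, against 17.5% of all genes), the median range was 0.68, and 32 were highest in tendon 1 (47.8%, against 38.6% of all genes).

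Among the ligands of the TGF-beta and activin branch, 7 of 9 symbols had a row. Of these, 0 of the 4 genes above 1 TPM had a range of 1 or more (17.5% of all genes). TGFB3 led with 69.5, 65.8, 50.1 and 99.8 TPM in tendons 1 to 4, followed by TGFB2 at 37.9 ± 3.85 TPM (SD, n = 4) and the activin subunit gene INHBA at 30.2 ± 5.83 TPM. TGFB1 had no entry under that symbol. Among BMP and GDF ligands, BMP2 had 73.2 ± 7.81 TPM, GDF10 39.9 ± 3.60 TPM, BMP6 29.6 ± 6.39 TPM and BMP4 22.03 ± 4.85 TPM. BMP5 had 9.60, 13.3, 13.7 and 21.3 TPM and GDF7 had 0.153, 0.403, 1.25 and 2.51 TPM in tendons 1 to 4. These were the 2 of 6 with a range of at least 1 (17.5% of all genes), both lowest in tendon 1 and highest in tendon 4. GDF7, with a mean of 1.08 TPM, lay barely above the filter of 1 TPM. TGFBR3, by contrast, was highest in tendon 1 and lowest in tendon 4.

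Extracellular binding proteins were led by FSTL1, a secreted follistatin-like glycoprotein, at 804 ± 53.0 TPM (SD, n = 4), which was above every receptor and SMAD. The latent TGF-beta binding protein genes LTBP2 and LTBP1, whose products hold or resemble those that hold TGF-beta in the matrix, had 156 ± 25.7 and 93.7 ± 22.9 TPM, and TWSG1, a BMP-binding protein gene, had 79.5 ± 4.75 TPM. Of 13 such genes above 1 TPM, 4 had a range of at least 1 (17.5% of all genes). Among them were the BMP antagonist gene SOSTDC1 (10.03 to 26.4 TPM), the BMP modulator gene BMPER (11.1 to 28.4 TPM) and NRROS (1.72 to 4.92 TPM), which encodes a protein that anchors latent TGF-beta on myeloid cells. NRROS was lowest in tendon 1 and highest in tendon 4.

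Among other receptors, the endothelial co-receptor gene ENG was the highest at 116 ± 11.8 TPM (SD, n = 4), followed by CD109, a TGF-beta co-receptor, at 80.2 ± 28.9 TPM, RGMB, a BMP co-receptor, at 39.8 ± 9.89 TPM, and BAMBI, a decoy receptor without kinase, at 37.9 ± 15.6 TPM. BAMBI had 60.9, 33.2, 30.9 and 26.5 TPM in tendons 1 to 4, and CD109 had 101, 57.5, 109 and 53.3 TPM. These 2 of 9 genes had a range of at least 1 (17.5% of all genes), with BAMBI highest in tendon 1 and CD109 high in tendons 1 and 3. Of the remaining SMADs, SMAD5 had 47.9 ± 9.69 TPM, SMAD1 20.01 ± 2.25 TPM and SMAD9 2.66 ± 0.620 TPM, so SMAD5 led the BMP branch.

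Of 15 intracellular regulators, 10 were highest in tendon 1 (38.6% of all genes) and 2 had a range of at least 1 (17.5% of all genes). LDLRAD4, which sequesters SMAD2 and SMAD3 away from the receptor, had 171, 127, 97.2 and 88.1 TPM in tendons 1 to 4, a range of 0.95, and was highest in tendon 1 and lowest in tendon 4, as TGFBR3 was. SKIL, a SMAD co-repressor that the pathway induces, had 81.0, 37.9, 59.6 and 37.5 TPM, and the co-repressor gene TGIF2 had 2.79 to 7.34 TPM. STRAP (81.6 ± 9.54 TPM, SD, n = 4), which steadies SMAD7 at the receptor, PPM1A (73.3 ± 6.20 TPM), a SMAD phosphatase, and USP9X (68.4 ± 9.24 TPM), a deubiquitinase that acts on SMAD4, stood at levels close to SMAD2 and SMAD4. Of the 9 nuclear partners above 1 TPM, 0 had a range of at least 1 (17.5% of all genes). JUN (107 ± 8.26 TPM), ZEB1 (76.4 ± 13.01 TPM), ATF2 (41.4 ± 7.26 TPM) and EP300 (38.7 ± 6.88 TPM) led them.

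Of the genes often used as reporters of the pathway, 5 of 9 had a range of at least 1 (17.5% of all genes), and their median range was 1.10, against 0.51 for all genes; this difference was not tested. ID1, a BMP-induced inhibitor of differentiation, had 281, 124, 152 and 100.03 TPM in tendons 1 to 4, and ID3 had 792, 501, 430 and 327 TPM. Both were highest in tendon 1 and lowest in tendon 4, as TGFBR3 was. CTGF, a matricellular TGF-beta target, had 577, 383, 469 and 346 TPM, a tendon order that SMAD7, TGFBR3 and ID1 also had. POSTN, the TGF-beta-induced matrix protein periostin, had 327, 282, 246 and 1312 TPM and was highest in tendon 4, where TGFBR3 and SMAD7 were lowest. HEY1, a transcriptional repressor induced by Notch and BMP signalling, was likewise highest in tendon 4, at 7.87 TPM against 2.91 to 3.51 TPM in the others. TIMP3, a metalloproteinase inhibitor, had 381 to 662 TPM. The reporters thus did not share 1 order of tendons, and the 4 of 9 highest in tendon 1 were near the share over all genes, 38.6%.

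The genes whose profile over the 4 tendons was most like that of a member were sought among 7006 other genes with a symbol that averaged 10 TPM or more, by the root mean square distance of centred log2(TPM + 0.5) values. With 4 tendons, many genes lie close by, so this is a description. For TGFBR3 the nearest was DCN, the collagen-binding proteoglycan decorin, at a distance of 0.035, with 19666, 13584, 15151 and 9626 TPM in tendons 1 to 4. SUSD5 (distance 0.050) and the thyroid hormone receptor gene THRB (0.051) followed. For TGFBR2 the nearest were QSOX1, a disulfide-forming oxidase of the secretory pathway (0.033), and CEP19, a centrosomal protein gene (0.033). For ACVR1 they were CMPK1, a nucleotide kinase (0.020), the heparan sulfate sulfotransferase gene HS2ST1 (0.020) and LRP12 (0.024). For SMAD4 they were PIAS1, a SUMO ligase, at 0.0050, with 19.96, 15.8, 18.7 and 16.7 TPM, then ZNF131 (0.010) and DNMBP (0.013).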

How the data were processed

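Poly(A) RNA libraries from 4 intact semitendinosus tendons, 1 per rabbit, were analysed as 1 group. The authors deposited unscaled estimated counts for each transcript. The submitters' processing notes name the build OryCun2.0 and the tools FastQC, bcl2fastq and kallisto 0.42.4, with no role for any of them; how reads were filtered and whether strand was used are not given in the sources used here. Symbols, Ensembl identifiers, coordinates and transcript lengths are in the same table, per the file headers.

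TPM were computed from counts and annotated lengths and summed per gene. Ratios within a tendon were tested on log2(TPM + 0.5) by exact two-sided permutation of the sign in each tendon, with Benjamini-Hochberg adjustment over 21 ratios. The range of a gene is the difference between its highest and lowest tendon on the same log2 scale, for genes that average 1 TPM or more. Counts rounded to whole numbers gave TMM factors and coefficients of variation (edgeR 4.0.16, R 4.3.3, intercept alone, at least 1 CPM in 2 tendons) and DESeq2 1.42.0 size factors. Other steps used Python 3.11.15 with pandas 2.3.3, numpy 2.4.6 and scipy 1.17.1. The range call and the coefficient were tested on simulated data, and the permutation test on fixed values with known answers.

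The members and gene lists were chosen with earlier results of these data known. Named genes were all members, up to 4 genes per pathway list by mean TPM, the wide-ranging genes of lists with at most 5 of them, and 3 genes of most similar profile for each of TGFBR2, TGFBR3, ACVR1 and SMAD4; some genes that this rule names are not reported here. Alternatives were CPM, the most abundant transcript, shorter lengths, other pseudocounts and filters, other scalings, and each tendon left out. No sequences were used.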

Additional observations from a re-analysis of the deposited data

Results flagged for a closer look

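In all, 101 levels, ratios and list sums were examined for a tendon apart from the other 3 by Dixon's ratio. Of these, 7 passed the critical value, and 0 of the 10 member levels were among them. A share of 1 in 20 would be about 5.05. That is only a rough guide, since some genes were named for a wide range and the ratios and sums reuse the same genes. The ratio of BMPR2 to TGFBR1 (0.946) was 1.36 in tendon 1 and 1.21 to 1.22 in the others. POSTN (0.924) had 1312 TPM in tendon 4 and 246 to 327 TPM in the others, and HEY1 (0.879) was also highest in tendon 4, at 7.87 TPM. BMP4 (0.877) was highest in tendon 3, at 29.3 TPM against 18.8 to 20.1 TPM. GDF10 (0.846) was highest in tendon 1, at 45.2 TPM against 37.6 to 38.8 TPM. The summed level of the intracellular regulators (0.830) was highest in tendon 1, at 777 TPM against 586 to 619 TPM. The summed level of the fast fibre markers (0.973) was highest in tendon 4, at 2387 TPM against 17.4 to 80.5 TPM.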

How the results depend on the processing

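Without length correction, 5 of 21 ratios changed sign, to mean log2 ratios of -0.30 for BMPR2 to BMPR1A, -0.13 for ACVR1 to BMPR1A, -0.31 for ACVR1 to TGFBR1, -0.48 for BMPR2 to TGFBR1 and -2.02 for SMAD3 to BMPR2; in each pair the first gene has the shorter row. With the most abundant transcript alone, SMAD4 to SMAD2 was -0.44 and SMAD4 to SMAD3 was -0.36, since SMAD4 then loses its other transcript. With lengths reduced by 200 bases, SMAD4 to SMAD2 was -0.018, SMAD4 to SMAD3 -0.18 and SMAD3 to SMAD2 0.16. Leaving out 1 tendon at a time, the sign held for 17 ratios, while SMAD4 to SMAD2 ranged from -0.000081 to 0.024, SMAD4 to SMAD3 from -0.012 to 0.22, SMAD3 to SMAD2 from -0.22 to 0.012 and SMAD3 to BMPR2 from -0.042 to 0.12. No member had a log2 range of at least 1 under any setting of scaling, pseudocount, filter or tendon left out that was run; this share over all genes was 10.3% with a mean of at least 10 TPM and 10.5% to 15.2% with 1 tendon left out. The count of members highest in tendon 1 was 9 under the 4 other scalings, chosen after seeing the data. Of 60 member levels recomputed, 3 moved by more than 1 SD, for SMAD4 and SMAD2. No paired analysis was possible because all 4 tendons form 1 group. With 4 animals, no ratio test can reach 0.05, and the short SMAD3 row of 746 bases limits its TPM.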
